A study of Mus musculus with 4 samples.

Results

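Transcripts of the oxidative phosphorylation machinery were measured in EO771 cells, a mouse mammary carcinoma cell line, after exposure to A-FABP, a lipid-binding protein of fat cells and macrophages, given as the recombinant mouse protein. The genes were chosen by symbol: those starting with Nduf, Uqcr or Atp5, the Cox4 to Cox8 subunit genes, Sdha to Sdhd, Cyc1 and Cycs, each from a probe set annotated to that gene alone. This gave 89 of 22180 genes on the arrays, and the probe set with the highest mean over all 4 arrays stood for each gene. The cells received A-FABP at 100 ng/ml (2 arrays) or PBS (2 arrays), after 24 hours of culture to at least 70% confluence. The PBS arrays are marked as untreated in their titles and source names, although their free-text description also names A-FABP. The length of exposure is not given in the labels. The titles call the arrays of a group biological replicates, and no genetic change is named for either group.

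Oxidative phosphorylation takes electrons from NADH and succinate, passes them along the inner mitochondrial membrane to oxygen, and uses the resulting proton gradient to make ATP. Complex I accepts electrons from NADH and complex II from succinate. Complex III moves them to cytochrome c, complex IV reduces oxygen, and complex V is the ATP synthase. Most subunits are encoded in the nucleus, while a small hydrophobic set is encoded by mitochondrial DNA. None of the 13 mitochondrially encoded genes looked for was matched to a probe set of its own, so the values below concern nuclear genes.

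By complex, the 89 genes comprised 32 subunits of complex I, 4 of complex II, 8 of complex III, 19 of complex IV, 17 of complex V and Cycs. The remaining 8 were Ndufaf genes, which encode assembly factors of complex I and are not subunits. They share the Nduf prefix and are described apart. Ndufa4, first assigned to complex I, is now counted with complex IV, and its paralog Ndufa4l2 was kept beside it.

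All values are log2 expression values as deposited, and each difference is A-FABP minus PBS control with its SE from limma. Over all probe sets, Pearson's r was 0.991 within each group and 0.985 to 0.989 between groups. The array medians were 5.98 and 5.95 with A-FABP and 6.03 in both PBS arrays. Of the epithelial markers, Krt8 lay well above these medians, with 8.76 and 8.85 in A-FABP arrays against 8.83 and 8.74 in PBS arrays, whereas Epcam lay below them on every array, between 4.45 and 5.05. The other epithelial markers had means nearer the medians: Krt18 6.01, Krt19 6.01, Krt7 6.17 and Cdh1 6.29. Cd68, a macrophage marker, was bright on all arrays at a mean of 12.8, while Ptprc, the pan-leukocyte marker, lay between 4.0 and 4.58. The myeloid markers Adgre1 and Itgam had means of 4.6 and 5.3, below the array medians. Csf1r, also a myeloid marker, had a mean of 6.81, above those medians, and a difference of 0.16 without overlap of the arrays. The leukocyte list, 6 of 7 genes matched, had a median difference of -0.27 with 5 genes below 0. Both A-FABP arrays lay below both PBS arrays in 4 of the 6: Ptprc (-0.45), Cd3e (-0.43), Itgam (-0.34) and Cd68 (-0.08). That is 66.7%, against 27.5% of all genes and 43.2% of genes at levels of 5 to 7. Csf1r alone lay above 0. The part of this list in the results below was not tested. Detection was not called, and brightness cannot be ranked between probe sets as transcript abundance.

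Most oxidative phosphorylation transcripts differed little between A-FABP and PBS. The median difference of the 89 genes was 0.023 (quartiles -0.050 and 0.082), against -0.010 for all 22180 genes (quartiles -0.16 and 0.10). Above 0 lay 54 genes (60.7%, against 47.6% of all genes) and below 0 lay 35. The largest difference in either direction was 1.38-fold, and 0 genes reached 1.5-fold. The median size of a difference, taken between means of 2 arrays, was 0.067. Single arrays of a group differed by a median of 0.060 with A-FABP and 0.053 with PBS. These sizes are not on one scale, since a mean of 2 arrays varies less than 1 array.

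None of the 89 genes passed limma's test at an adjusted p under 0.05, and neither did any of the 41345 probe sets (0.00% called). The lowest limma adjusted p was 0.304 among the 89 genes and 0.296 over all probe sets, of which 6258 had an unadjusted p under 0.05. At that unadjusted level 3 of the 89 genes were higher with A-FABP and 2 lower, which is 3.37% and 2.25% of them, where 4.81% and 8.24% of all genes were. The higher ones were Ndufb11, Ndufb8 and Ndufaf2, and the lower ones Atp5d and Ndufa4l2. Without PBS control replicate 1, Ndufb11 lay at 0.19, Ndufb8 at 0.27, Ndufaf2 at 0.27, Atp5d at -0.35 and Ndufa4l2 at -0.25. Without PBS control replicate 2, they lay at 0.36, 0.22, 0.29, -0.37 and -0.27, in the same order. Each of these fits has 1 residual degree of freedom and takes the spread from the A-FABP pair, so no calls are drawn from them. In a single gene, the smallest two-sided p of an exact permutation test with 2 arrays per group is 0.333.

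For most genes the arrays were precise enough to bound the difference. The unadjusted 95% confidence interval lay within 1.5-fold in both directions for 74 of the 89 genes (83.1%), against 72.0% of all genes. In all 15 of the others, the 2 arrays of at least one group differed by more than 0.2. These were Ndufs5 and Ndufab1 in complex I, 6 genes of complex IV, 5 of complex V and the assembly factors Ndufaf1 and Ndufaf6. All 4 genes of complex II and all 8 of complex III had intervals within 1.5-fold.

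**Figure D1:**
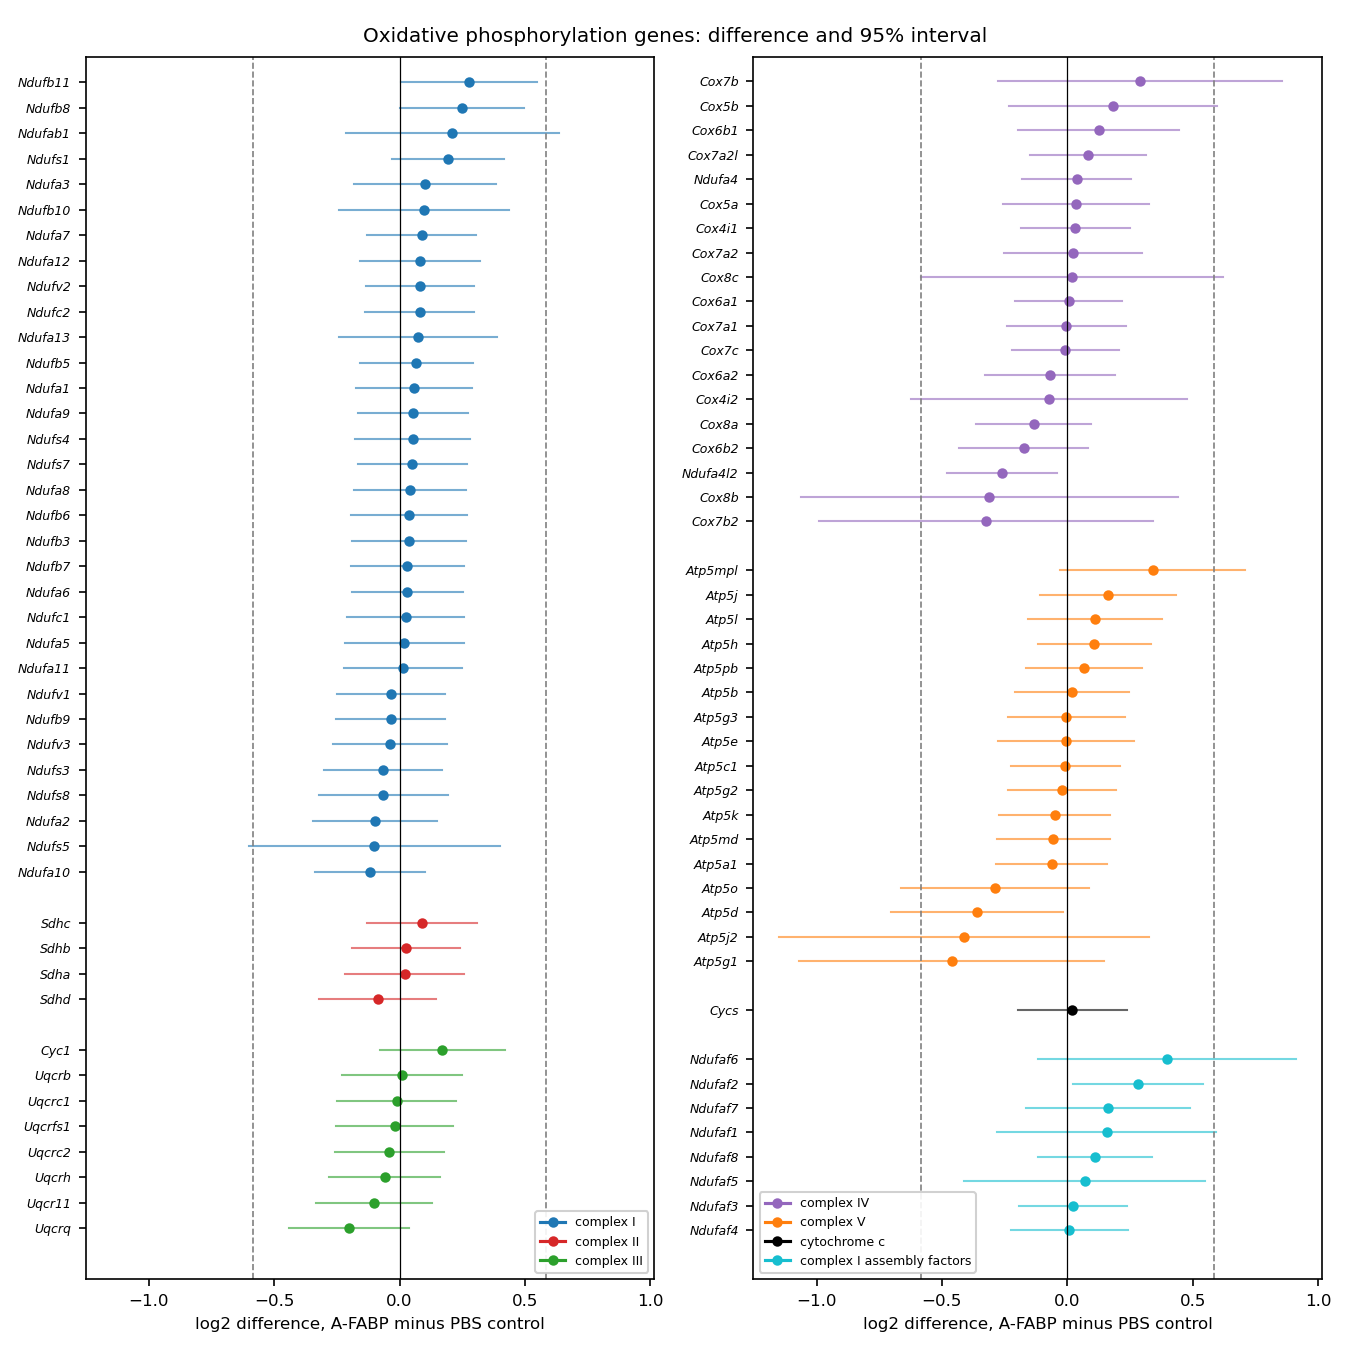
Log2 difference (A-FABP minus PBS control) of each of the 89 genes, grouped by complex and ordered within it. Points are differences, lines are unadjusted 95% confidence intervals from limma, and dashed lines mark 1.5-fold; no point lies beyond a dashed line, and intervals are widest in complexes IV and V.

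Complex I, the NADH dehydrogenase, had a median difference of 0.046 over 32 subunits, with 24 above 0 and 8 below. The A-FABP arrays lay above both PBS arrays in 11 subunits (34.4%) and below both in 5 (15.6%). Of all genes, 26.0% lay above and 27.5% below. Most complex I subunits had a mean level of 7 or above, where 47.1% of genes lay above and 12.9% below. A difference above 0 was found in 75% of the 32 subunits and in 72.3% of genes at that level. Ndufb11, an accessory subunit of the membrane arm, had values of 6.26 and 6.26 with A-FABP, against 5.90 and 6.07 with PBS (0.28 ± 0.10 SE, limma adjusted p = 0.326). Ndufb8, another accessory subunit of that arm, had 7.77 and 7.65 with A-FABP, against 7.48 and 7.43 with PBS (0.25 ± 0.09, limma adjusted p = 0.329). In both genes the groups did not overlap.

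Ndufs1, the large iron-sulfur core subunit that receives electrons from the flavin site, had 9.86 and 9.89 with A-FABP, against 9.65 and 9.71 with PBS. Its difference of 0.19 ± 0.08 had a limma adjusted p of 0.363, and its arrays did not overlap either. The other core subunits lay closer to 0. Ndufv1, which holds the flavin, lay at -0.03, Ndufv2 at 0.08, Ndufs3 at -0.07, Ndufs7 at 0.05 and Ndufs8 at -0.07. The median was 0.0088 over the 6 core subunits and 0.047 over the 26 accessory ones. Of the accessory subunits, 21 lay above 0 (80.8%), against 72.3% of all genes at level 7 or above.

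On the lower side of complex I, differences were small. Ndufa10, an accessory subunit related to nucleoside kinases, had 11.05 and 11.02 with A-FABP, against 11.17 and 11.13 with PBS (-0.12 ± 0.08). Ndufa2, an accessory subunit with a thioredoxin-like fold, had 8.97 and 8.96 with A-FABP, against 9.13 and 9.01 with PBS (-0.10 ± 0.09). Both groups of arrays were separate in these genes, with A-FABP below. Ndufab1, the mitochondrial acyl carrier protein, had one of the less precise values (0.21 ± 0.15), with replicates at 7.43 and 7.69 in A-FABP arrays and at 7.48 and 7.22 in PBS arrays. Ndufa8, Ndufa11 and Ndufa12 lay at 0.04, 0.01 and 0.08, while their other, dimmer probe sets lay at -0.14, -0.16 and -0.14.

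The 8 Ndufaf assembly factors, which help to build complex I and are not part of the finished enzyme, all lay above 0, with a median of 0.13 (range 0.0085 to 0.40). In 4 of them (50%) both A-FABP arrays lay above both PBS arrays, and in 0 below. Of the 8, 6 had a mean level of 7 or above, where 47.1% of all genes had both A-FABP arrays above and 72.3% had a difference above 0. Ndufaf2, which binds a late assembly intermediate, had 6.81 and 6.66 with A-FABP, against 6.45 and 6.46 with PBS (0.28 ± 0.09, limma adjusted p = 0.316). Ndufaf6 had 7.04 and 7.50 with A-FABP, against 6.87 and 6.88 with PBS (0.40 ± 0.18, limma adjusted p = 0.393). Its size rested on 1 array, being 0.63 without A-FABP replicate 1 and 0.16 without A-FABP replicate 2. Ndufaf7, a methyltransferase that acts on a core subunit, lay at 0.16 ± 0.12 with overlapping arrays. Ndufaf3 and Ndufaf4 lay at 0.02 and 0.01. The median of the 8 genes was 0.22 without A-FABP replicate 1 and 0.041 without A-FABP replicate 2.

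Complex II, which is also the succinate dehydrogenase of the tricarboxylic acid cycle, showed differences no larger than 0.09 in any subunit. Sdha, the flavoprotein, had 11.02 and 10.91 with A-FABP, against 10.94 and 10.95 with PBS (0.02, 95% CI -0.22 to 0.26). Sdhb, the iron-sulfur subunit, lay at 0.03 (-0.19 to 0.24). The membrane anchors went opposite ways without overlap of the arrays: Sdhc lay at 0.09 (-0.13 to 0.31) and Sdhd at -0.09 (-0.32 to 0.15).

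In complex III, the cytochrome bc1 complex, 6 of 8 genes lay below 0 and the median was -0.030, the lowest of the complexes in the deposited values. Uqcrq, a small subunit, had 7.42 and 7.52 with A-FABP, against 7.66 and 7.69 with PBS (-0.20 ± 0.09, limma adjusted p = 0.371). Uqcr11, also a small subunit, lay at -0.10 ± 0.08 and Uqcrh, the hinge protein, at -0.06 ± 0.08. In these 3 genes and in Uqcrc2, a core protein, both A-FABP arrays lay below both PBS arrays, 4 of 8 genes, against 27.5% of all genes and 12.9% of those at level 7 or above. Cyc1, which encodes cytochrome c1, went the other way, with 9.37 and 9.33 with A-FABP, against 9.24 and 9.12 with PBS (0.17 ± 0.09, limma adjusted p = 0.431). Uqcrfs1, the Rieske iron-sulfur protein, lay at -0.02 and Uqcrb, a small subunit, at 0.01. All 8 genes had mean levels above 7, and 72.3% of all genes at level 7 or above had a difference above 0.

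**Figure D2:**
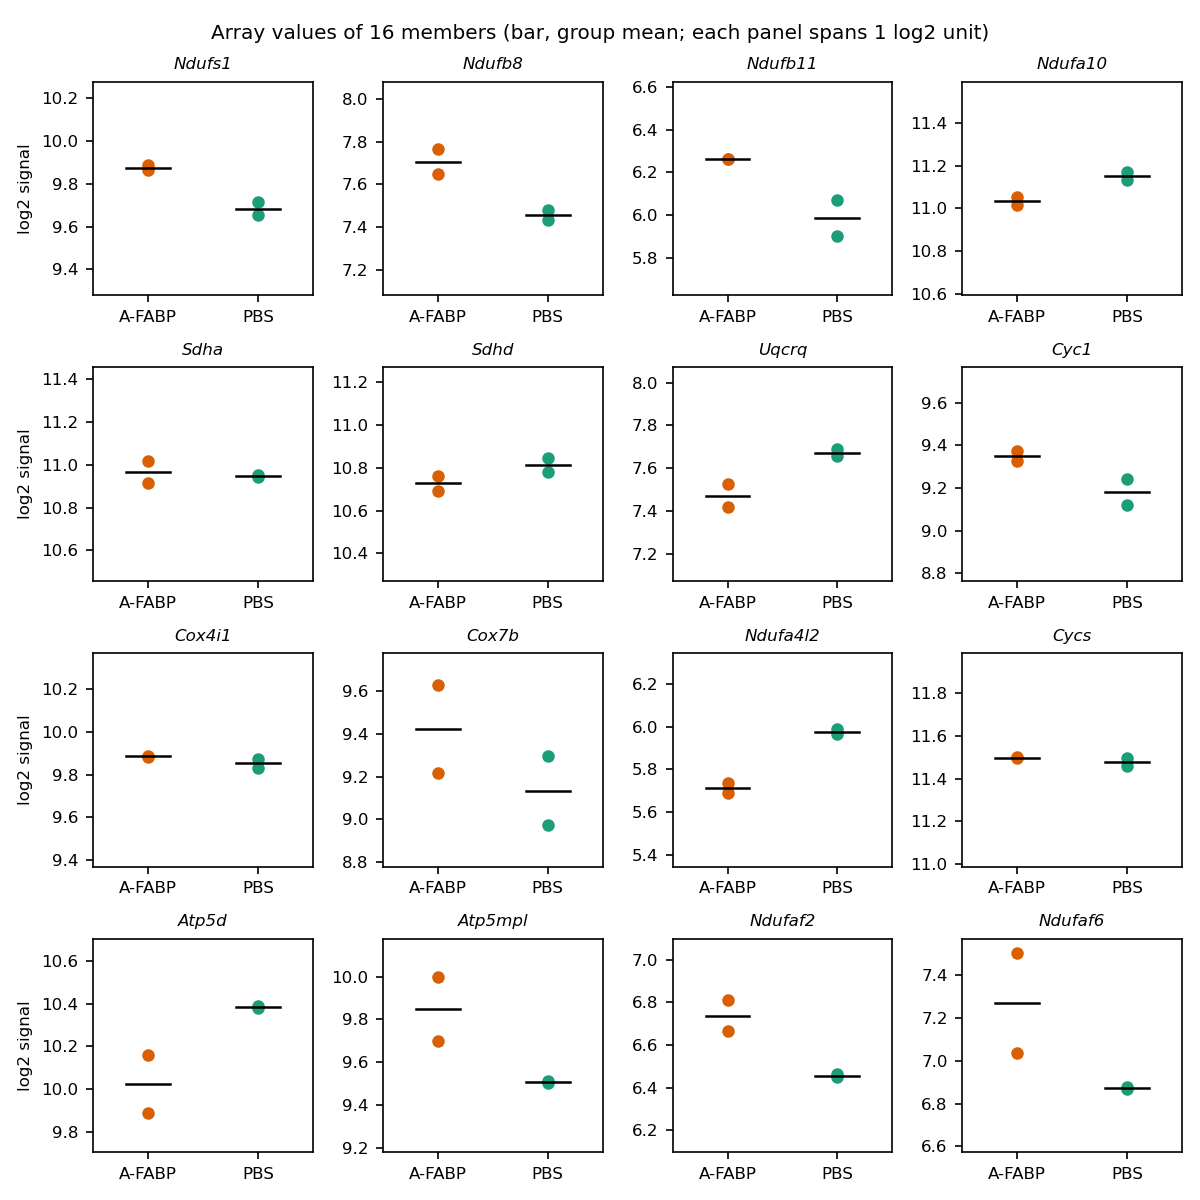
Log2 expression on each array for 16 genes, with the A-FABP arrays left and the PBS arrays right; each point is 1 array, bars are group means, and every panel spans 1 log2 unit. The groups are apart in Ndufs1, Ndufb8 and Ndufaf2 (A-FABP higher) and in Uqcrq, Atp5d and Ndufa4l2 (A-FABP lower), and they overlap in Sdha, Cox7b and Cycs.

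Cycs, the soluble cytochrome c that carries electrons from complex III to complex IV, had 11.50 and 11.49 with A-FABP, against 11.50 and 11.46 with PBS (0.02, 95% CI -0.20 to 0.24). Its 4 other probe sets lay at 0.20, 0.03, 0.43 and 0.43, and the last 2 hold identical values, with 8.45 and 8.67 for A-FABP against 8.34 and 7.92 for PBS. Mouse Cycs has processed pseudogenes, and signal shared with them was not tested.

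Complex IV, cytochrome c oxidase, had a median difference of 0.0054 over 19 genes, with 10 above 0 and 9 below. Several of its subunits exist as a broadly expressed form and as forms restricted to certain tissues, and the 2 kinds differed in signal. The 11 broadly expressed genes had a median of 0.034, with 9 above 0 (81.8%), and 10 of them had a mean level of 7 or above. At that level 72.3% of all genes lay above 0. Cox4i1, a subunit with regulatory roles, had 9.88 and 9.89 with A-FABP, against 9.83 and 9.87 with PBS (0.03, 95% CI -0.19 to 0.25). Cox6a1, the brightest member, had 13.18 and 13.19 with A-FABP, against 13.17 and 13.18 with PBS (0.0055). Ndufa4 lay at 0.04, Cox7a2 at 0.02, Cox7a2l, which takes part in respiratory supercomplexes, at 0.08, Cox6b1 at 0.13 ± 0.11 and Cox8a at -0.13 ± 0.08. Without PBS control replicate 2, Cox6b1 lay at 0.01.

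Cox7b and Cox5b had values that depended on single arrays or probe sets. Cox7b had 9.63 and 9.22 with A-FABP, against 9.30 and 8.97 with PBS, so the arrays overlapped (0.29 ± 0.20, limma adjusted p = 0.530). It lay at 0.08 without A-FABP replicate 1 and at 0.50 without A-FABP replicate 2. Its other probe set lay at 0.58 ± 0.19, with 6.59 and 6.50 for A-FABP against 6.21 and 5.72 for PBS and no overlap. Cox5b had 10.38 and 10.03 with A-FABP, against 10.03 and 10.01 with PBS (0.18 ± 0.15), and 0.0052 without A-FABP replicate 1. Its other probe set lay at -0.34 ± 0.26.

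The restricted forms were Cox6a2, Cox7a1 and Cox8b of heart and skeletal muscle, Cox6b2, Cox7b2 and Cox8c of testis, Cox4i2, known from lung, and the hypoxia-inducible Ndufa4l2. This grouping was made after their values were seen. All 8 had mean levels below 7, and 7 of them lay below 0, with a median of -0.12. Ndufa4l2 had 5.69 and 5.74 with A-FABP, against 5.99 and 5.96 with PBS (-0.26 ± 0.08, limma adjusted p = 0.304). Cox6b2 lay at -0.17 ± 0.09 without overlap, Cox7a1 at -0.0041 and Cox6a2 at -0.07, while Cox4i2 (-0.07 ± 0.20), Cox7b2 (-0.32 ± 0.24), Cox8b (-0.31 ± 0.27) and Cox8c (0.02 ± 0.22) had wide errors. The 8233 genes at levels of 5 to 7 had a median of -0.13, and 25.8% of them lay above 0. Skeletal and cardiac muscle markers, 7 of 7 matched, had mean levels of 4.88 to 7.01 and a median difference of -0.15.

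Complex V, the ATP synthase, had the widest spread among the complexes, from -0.46 to 0.34, around a median of -0.0084 over 17 subunits, of which 6 lay above 0 and 11 below. Its bright catalytic genes hardly differed. Atp5a1 and Atp5b, the alpha and beta subunits of the F1 head, lay at -0.06 (95% CI -0.28 to 0.16) and 0.02 (-0.21 to 0.25). Atp5c1 and Atp5e, gamma and epsilon of the central stalk, lay at -0.0084 and -0.0035.

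Atp5d, the delta subunit of the central stalk, had 9.89 and 10.16 with A-FABP, against 10.39 and 10.38 with PBS (-0.36 ± 0.12, limma adjusted p = 0.319). Both A-FABP arrays were lower at this probe set. At its other probe set, however, Atp5d lay at -0.05 ± 0.08, with 10.14 and 10.20 for A-FABP against 10.21 and 10.24 for PBS. The first probe set gave -0.23 without A-FABP replicate 1 and -0.50 without A-FABP replicate 2.

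In the peripheral stalk and the membrane part, 12 genes had a median of -0.012, with 5 above 0 and 7 below. Atp5mpl, a small proteolipid of the complex, had 10.00 and 9.70 with A-FABP, against 9.50 and 9.51 with PBS (0.34 ± 0.13, limma adjusted p = 0.345), and the difference was 0.19 without A-FABP replicate 1. The stalk subunits Atp5j and Atp5h lay at 0.16 ± 0.10 and 0.11 ± 0.08. In all 3 both A-FABP arrays were above both PBS arrays, although the other Atp5h probe set lay at -0.0083. Over the 17 subunits of complex V, the A-FABP arrays lay above both PBS arrays in 5 (29.4%) and below both in 7 (41.2%). Of all genes, 26.0% lay above and 27.5% below, and at level 7 or above 47.1% and 12.9%. Atp5o, the subunit that joins the stalk to the F1 head, had 7.32 and 7.18 with A-FABP, against 7.40 and 7.68 with PBS (-0.29 ± 0.13, limma adjusted p = 0.393). Without PBS control replicate 1 it lay at -0.43, and without PBS control replicate 2 at -0.15. Atp5j2, a small membrane subunit, had 5.39 and 6.09 with A-FABP, against 6.14 and 6.16 with PBS (-0.41 ± 0.26), but it lay at -0.06 without A-FABP replicate 1 and at -0.76 without A-FABP replicate 2.

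Atp5g1, Atp5g2 and Atp5g3 encode the same mature c subunit of the proton-driven ring from separate genes. Atp5g1 had 6.44 and 5.90 with A-FABP, against 6.55 and 6.72 with PBS (-0.46 ± 0.22, limma adjusted p = 0.396). The A-FABP replicates were far apart, and the difference was -0.73 without A-FABP replicate 1 and -0.19 without A-FABP replicate 2. Atp5g2 had 12.53 and 12.50 with A-FABP, against 12.53 and 12.55 with PBS (-0.02, 95% CI -0.24 to 0.19). Atp5g3 had 9.01 and 8.95 with A-FABP, against 9.01 and 8.95 with PBS (-0.0034).

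Differences in these arrays followed signal level, and the oxidative phosphorylation genes lay mostly on the bright side. Of the 89 genes, 74 had a mean level of 7 or above. Those 74 had a median difference of 0.031, and 67.6% lay above 0, against a median of 0.062 and 72.3% for the 9161 genes of that level. The A-FABP arrays lay above both PBS arrays in 24 of the 74 (32.4%), where 47.1% of genes at that level did, and below in 16 (21.6%), where 12.9% did, or 60.0% in either direction. At unadjusted p under 0.05 they held 1 higher gene and 1 lower, 1.35% each, against 6.66% higher, 1.52% lower and 8.18% in either direction at that level. The 95% interval lay within 1.5-fold in 89.2% of the 74 and in 92.3% of genes of that level. The 15 dimmer genes had a median of -0.07, and 4 of them lay above 0.

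**Figure D3:**
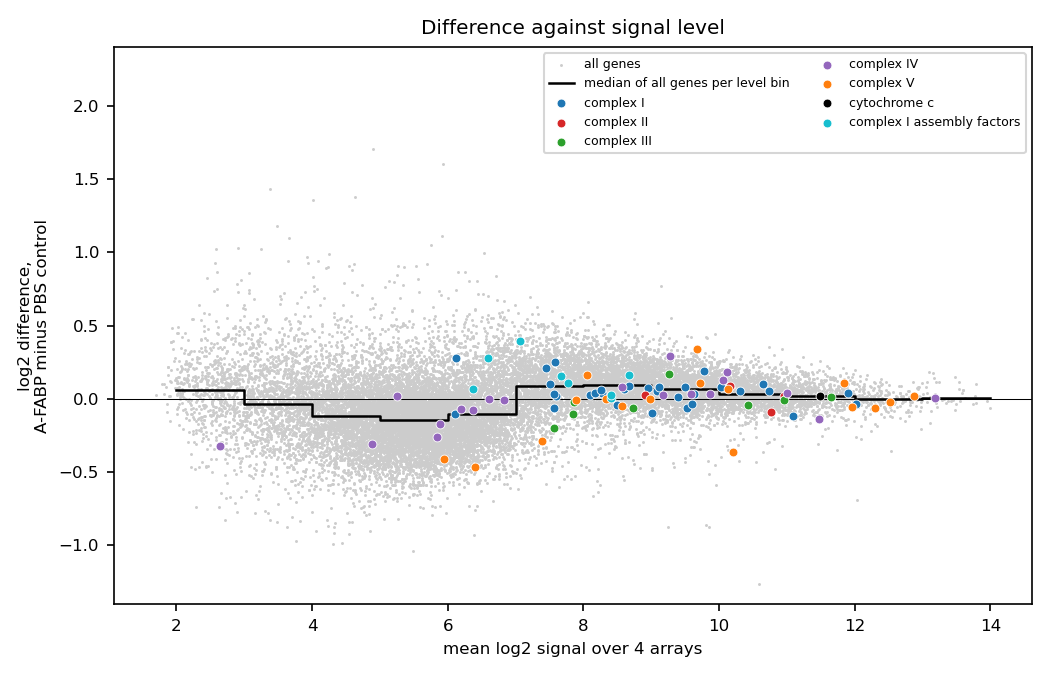
Log2 difference (A-FABP minus PBS control) against mean log2 signal over 4 arrays; grey points are all 22180 genes, the black line is the median of all genes in each bin of 1 log2 unit, and coloured points are the oxidative phosphorylation genes by complex. The line lies below 0 at levels of 3 to 7 and above 0 from 7 upward, and most coloured points lie at level 7 or above and close to it.

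Side by side, the medians of complexes I to V were 0.046, 0.023, -0.030, 0.0054 and -0.0084, all within 0.05 of 0. No test over genes was made between complexes, since their genes share the same 4 arrays. The order of the complexes and the signs of their medians moved with the scaling between arrays. After cyclic loess the medians of complexes I to V were -0.0078, -0.027, -0.079, 0.0046 and -0.066, and after median centring all 5 were above 0. The complex I assembly factors had the highest median under all alternatives except without A-FABP replicate 2, where it was 0.041 and that of complex II 0.044.

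**Figure D4:**
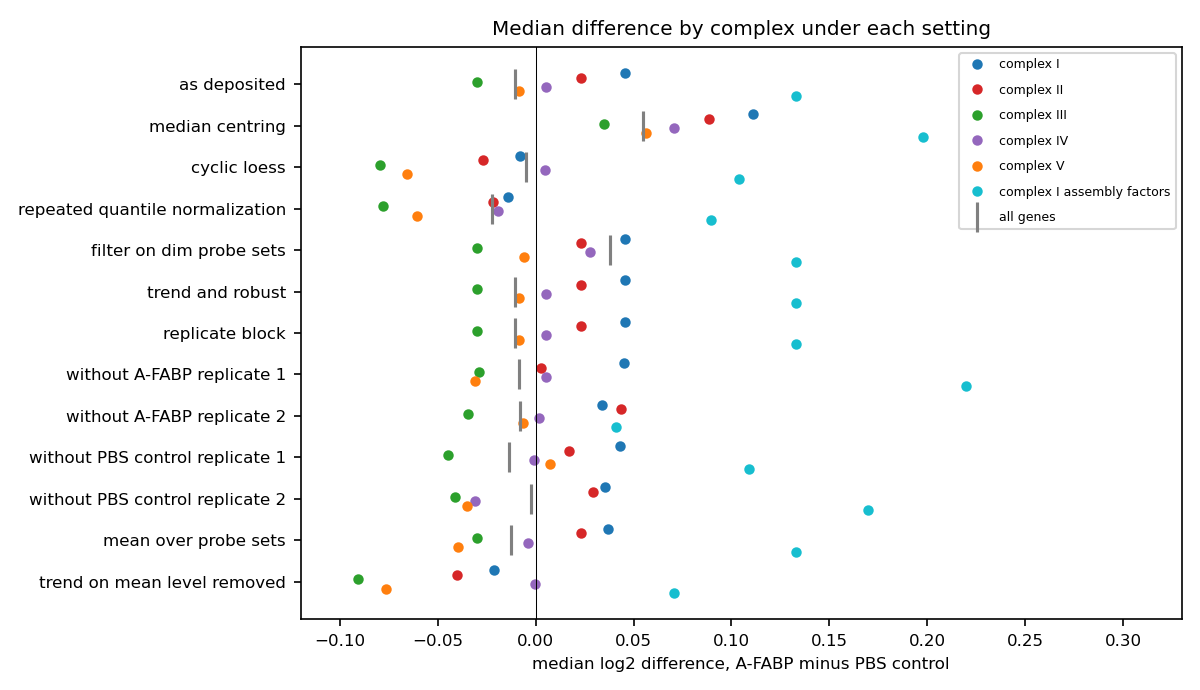
Median log2 difference (A-FABP minus PBS control) of each complex, one row per setting, with the values as deposited on top; coloured points are the complexes and the assembly factors, and grey bars are the median of all genes where it was computed. Median centring moves all medians above 0, and complexes III and V lie lowest after cyclic loess.

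Among other genes of the pathway, the median size of a difference ran from 0.025 for the tricarboxylic acid cycle to 0.13 for the assembly factors of complexes I, II, III and V, against 0.067 for the 89 genes. The complex IV assembly list, 19 of 22 genes matched, had a median of -0.0043. At an unadjusted p under 0.05, 3 of its genes were higher (15.8%, against 4.81% of all genes and 6.66% at level 7 or above). At that p 0 were lower, against 8.24% of all genes and 1.52% at level 7 or above. Coa7, an assembly factor, had 6.78 and 6.70 with A-FABP, against 6.40 and 6.44 with PBS (0.32 ± 0.08, limma adjusted p = 0.296). Coa3, which acts on the early steps of the largest catalytic subunit, lay at 0.25 ± 0.08 (limma adjusted p = 0.316). The third was Surf1, another assembly factor, at 0.29 ± 0.10, named here after its value was seen. Assembly factors of complexes I, II, III and V other than Ndufaf genes had a median of 0.10 in 20 genes, with 16 above 0 (80%), against 47.6% of all genes and 72.3% at level 7 or above. At an unadjusted p under 0.05, 0 of them were higher and 1 was lower (5.0%), where 4.81% of all genes were higher and 8.24% lower. Atpaf1, a chaperone of the F1 head, lay at 0.27 ± 0.10, and Sdhaf1, which helps to insert iron-sulfur clusters into complex II, at -0.33 ± 0.11.

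The 16 regulators of mitochondrial genes had a median of 0.053, and 10 lay above 0. At an unadjusted p under 0.05, 1 was higher and 1 lower, 6.25% each, near the 4.81% and 8.24% of all genes. Tfam, which packages and transcribes mitochondrial DNA, had 8.01 and 8.10 with A-FABP, against 7.81 and 7.56 with PBS (0.37 ± 0.12, limma adjusted p = 0.316). Ppargc1b, a coactivator of respiratory genes, had 5.27 and 5.13 with A-FABP, against 5.98 and 5.58 with PBS (-0.58 ± 0.17, limma adjusted p = 0.302), at dim levels where differences ran below 0. In both genes the arrays did not overlap, but without PBS control replicate 2 Tfam lay at 0.24, and without PBS control replicate 1 Ppargc1b lay at -0.38. The factors Nrf1, Gabpa and Esrra lay at -0.09, 0.11 and -0.09, and Ppargc1a, dim throughout, at -0.08.

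Enzymes of the tricarboxylic acid cycle, 17 of 18 matched and all at mean levels above 7, had a median of 0.012 and a largest difference of 0.17. In limma's test 0 of the 17 had an unadjusted p under 0.05, where 8.18% of genes at level 7 or above did in either direction. Pcx, which encodes pyruvate carboxylase, lay at 0.17 ± 0.08 and Suclg1 at 0.12 ± 0.08. Genes of electron entry and exchange had a median of 0.029 over 14, all at mean levels above 7. At an unadjusted p under 0.05, 1 was higher (7.14%) and 0 lower, where 6.66% and 1.52% of genes at level 7 or above were. The higher one was Slc25a13, a mitochondrial aspartate and glutamate carrier (0.24 ± 0.08, limma adjusted p = 0.318), and Etfdh, which passes electrons from fatty acid oxidation to ubiquinone, lay at 0.17 ± 0.09. Mitochondrial ribosomal proteins, which make the mitochondrially encoded subunits, comprised 71 genes, whose median was 0.064. Above 0 lay 52 (73.2%, against 47.6% of all genes and 72.3% at level 7 or above). Of the 71, 5 were higher at an unadjusted p under 0.05, 7.04% against 4.81% of all genes and 6.66% at level 7 or above. At that p 0 were lower, against 8.24% of all genes and 1.52% at level 7 or above. Mrps36, since assigned to the 2-oxoglutarate dehydrogenase complex, had 5.95 and 5.94 with A-FABP, against 5.06 and 5.38 with PBS (0.73 ± 0.14, 1.66-fold, limma adjusted p = 0.296). Mrpl20 lay at 0.33 ± 0.09.

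**Figure D5:**
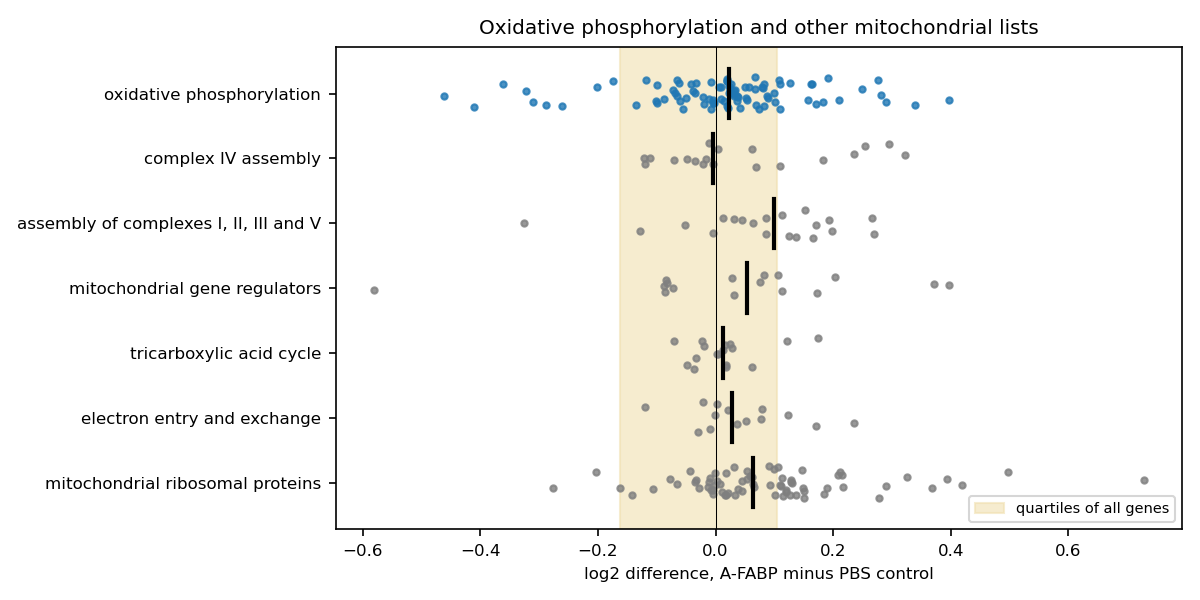
Log2 difference (A-FABP minus PBS control) of the 89 oxidative phosphorylation genes (top) and of the genes of 6 other mitochondrial lists; each point is 1 gene, black bars are medians, and the shaded band spans the quartiles of all genes. All medians lie between -0.0043 and 0.10, inside the band.

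Promoter windows of RefSeq (build GRCm38.p6, 250 bases before to 50 after a gene's start) were matched to 73 of the 89 genes, 78 windows in all. They were searched on both strands for letters bound by factors known for respiratory genes: GCGC, any 2 bases and GCGC again for NRF1, CCGGAAG for the ETS factor GABPA and AAGATGGCG for YY1. The NRF1 letters stood in 20 of 78 windows (25.6%), against 6.23% of all 32851 windows and 14.2% of windows of genes at level 7 or above. The ETS letters stood in 19 (24.4%), against 8.86% and 19.2%, and the YY1 letters in 7 (8.97%), against 1.40% and 3.50%. Matches of different motifs overlapped in 0 windows. At least one of the 3 was found in 39 genes, whose median difference was 0.019, while the 34 genes without one had a median of 0.038. By window, at least one stood in 51.3%, against 14.9% of all windows and 32.5% of windows of genes at level 7 or above. By complex, matches stood in 15 of 29 genes of complex I, 3 of 3 of complex II and 3 of 4 of complex III. In complex IV 3 of 14 genes had one, and in complex V 11 of 15. Among the assembly factors 4 of 7 had one, and Cycs had none.

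The windows below show 3 with matches and that of Ndufb8, one of the 3 genes higher at an unadjusted p under 0.05, with none. Capitals mark the matched letters, and each is read 5′ to 3′ on the gene's strand, which is the minus strand for all of them. Cox6a1 lies at chr5:115348909-115349208, Ndufs3 at chr2:90904672-90904971, Ndufs4 at chr13:114388045-114388344 and Ndufb8 at chr19:44555393-44555692.
Cox6a1: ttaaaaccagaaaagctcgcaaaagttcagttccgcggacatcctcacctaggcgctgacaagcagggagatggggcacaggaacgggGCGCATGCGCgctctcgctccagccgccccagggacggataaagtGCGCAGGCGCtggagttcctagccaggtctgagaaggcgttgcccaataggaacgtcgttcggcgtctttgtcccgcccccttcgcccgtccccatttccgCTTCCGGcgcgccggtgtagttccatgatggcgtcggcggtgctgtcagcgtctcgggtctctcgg
Ndufs3: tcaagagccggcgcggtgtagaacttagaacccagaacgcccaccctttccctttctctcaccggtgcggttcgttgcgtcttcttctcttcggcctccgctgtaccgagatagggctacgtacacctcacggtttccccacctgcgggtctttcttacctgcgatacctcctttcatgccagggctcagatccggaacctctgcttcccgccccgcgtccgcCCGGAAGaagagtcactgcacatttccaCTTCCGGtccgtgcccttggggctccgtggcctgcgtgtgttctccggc
Ndufs4: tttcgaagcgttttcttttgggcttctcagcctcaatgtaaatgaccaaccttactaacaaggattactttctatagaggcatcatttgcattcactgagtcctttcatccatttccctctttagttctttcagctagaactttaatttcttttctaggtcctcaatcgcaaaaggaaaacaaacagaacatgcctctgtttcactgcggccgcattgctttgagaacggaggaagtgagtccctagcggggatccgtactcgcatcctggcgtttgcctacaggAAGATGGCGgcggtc
Ndufb8: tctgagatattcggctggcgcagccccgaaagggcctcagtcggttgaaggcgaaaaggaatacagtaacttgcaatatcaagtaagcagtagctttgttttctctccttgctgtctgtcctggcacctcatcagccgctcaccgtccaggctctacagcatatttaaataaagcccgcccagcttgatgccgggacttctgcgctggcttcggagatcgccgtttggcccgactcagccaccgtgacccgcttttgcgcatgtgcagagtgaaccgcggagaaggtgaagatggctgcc
Cox6a1 holds NRF1 letters at bases 89 to 98 and 134 to 143 and the ETS letters at 235 to 241 of the window, and its difference was 0.0055. Ndufs3 holds the ETS letters at bases 224 to 230 and 252 to 258, with a difference of -0.07. Ndufs4, an accessory subunit of complex I, holds the YY1 letters at bases 286 to 294, with a difference of 0.05. A match describes the letters in the window and is not a measured binding site.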

How the data were processed

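RNA of 4 EO771 cultures was biotin-labelled and hybridised to single-colour expression arrays, 1 array per culture. The values are log2 expression per probe set as deposited by the authors. The submitters' processing notes name RMA, a background, scaling and probe-summary method, and Partek 6.6, per the same notes. No step between the scan and these values was repeated.

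The platform annotation named 1 gene for 23521 of 41345 probe sets and several for 1814, which name none here, and 2 pseudogene symbols were left out. The genes, complexes and lists were chosen with earlier results of these data known. Differences were fitted over all probe sets with limma 3.58.1 (lmFit, eBayes) in R 4.3.3, with no block, two-sided, with Benjamini-Hochberg adjustment, and 0.05 was the threshold for a call. The fit was tested on simulated arrays. Lists are described by counts and medians without a test. The genes named were a panel of isoforms and key subunits, up to 3 genes of lowest p on each side of 0 in complexes I, III, IV, V and the assembly factors, and 2 per related list. Others named are given to complete a complex or a list. The number of arrays limits the precision.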

Additional observations from a re-analysis of the deposited data

How the results depend on the processing

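Under all alternatives tried, 0 probe sets passed the adjusted threshold in limma, and 0 of the 89 genes did. The lowest limma adjusted p over all probe sets or genes ran from 0.156 to 0.579. At an unadjusted p under 0.05, the count of higher genes was 3 as reported, 5 with median centring, with the filter on dim probe sets (83 genes left), with trend and robust settings and with the mean over probe sets, 2 with cyclic loess and with quantile normalization, and 1 with the replicate block. Of all genes, 4.81% were higher as reported, 8.17% with median centring, 11.5% with the filter and 8.52% with trend and robust settings. The share was 6.97% with the mean over probe sets, 4.41% with cyclic loess, 3.67% with quantile normalization and 3.26% with the replicate block. The count of lower genes was 2 as reported, 3 with trend and robust settings, 0 with median centring and 1 with the mean over probe sets. Leaving out single arrays gave fits with 1 residual degree of freedom. In these the lone array of a group is assumed to vary like the other group, so their unadjusted counts are not given. Same-numbered arrays did not deviate together over all probe sets (r = -0.0089). This cannot show whether cultures of the same number were handled as pairs, which the labels do not state. With the replicate block, 0 adjusted calls were made.

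The scaling set the sign of the small medians. Median centring gave 0.088 for all 89 genes, 0.111, 0.088, 0.035, 0.071 and 0.057 for complexes I to V and 0.198 for the assembly factors, as it moved the median of all genes to 0.055. Cyclic loess gave -0.012 for the 89 genes and -0.0078, -0.027, -0.079 and -0.066 for complexes I, II, III and V. Repeated quantile normalization gave -0.017 for the 89 genes and -0.014, -0.022, -0.078, -0.019 and -0.061 for complexes I to V. With the trend on mean level removed, an alternative chosen after seeing the data, the values were -0.023 for the 89 genes and -0.021, -0.040, -0.091 and -0.077 for complexes I, II, III and V. The filter on dim probe sets gave 0.028 for complex IV, over the 14 genes left, and the mean over probe sets -0.040 for complex V. Leaving out single arrays gave 0.015 to 0.031 for the 89 genes, 0.034 to 0.045 for complex I, 0.0028 to 0.044 for complex II, -0.045 to -0.029 for complex III, -0.031 to 0.0052 for complex IV, -0.0352 to 0.0073 for complex V and 0.041 to 0.22 for the assembly factors. The difference of Cox5b turned to -0.08 with the mean over probe sets, because its other probe set lies below 0.

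For the related lists in the order assembly of complexes I, II, III and V, regulators, tricarboxylic acid cycle, electron entry and ribosomal proteins, median centring gave 0.165, 0.118, 0.0775, 0.0938 and 0.129, cyclic loess 0.0577, 0.0161, -0.0401, -0.0132 and 0.0147, and quantile normalization 0.0550, 0.0014, -0.0318, 0.0038 and 0.0079. Leaving out single arrays gave 0.0970 to 0.125, -0.0208 to 0.10, -0.0165 to 0.0209, 0.0253 to 0.0598 and 0.0431 to 0.0953. The filter gave 0.0867 and 0.0752 for the first and second list. Complex IV assembly lay at 0.0607 with median centring and at -0.0320 to 0.0613 without single arrays. Causes were not tested.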

Other observations

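Probe sets annotated to an oxidative phosphorylation gene together with another gene were not used above. There were 10, and their values add 5 subunits that have no probe set of their own. Ndufb2, an accessory subunit of complex I, shares its probe set with Adck2 and had 7.11 and 7.25 with A-FABP, against 6.96 and 7.0 with PBS (0.20 ± 0.09 SE). The 2 probe sets of Cox6c, a complex IV subunit shared with Gm6265, lay on opposite sides of 0, at 0.07 ± 0.08 for the bright one and -0.16 ± 0.09 for the dimmer one, each with arrays that did not overlap. Those of Ndufs6 and Ndufs6b lay at 0.00052 and -0.0038, that of Ndufb4 with its copies at 0.0067 and that of Uqcr10 with Gm6293 at 0.07. The probe set of Ndufs5 and its pseudogene was bright at 8.42 and 8.35 with A-FABP, against 8.17 and 8.25 with PBS (0.18 ± 0.08), whereas the probe set of Ndufs5 alone lay at -0.10 ± 0.18. The probe sets of Ndufs1 with Ino80dos and of Uqcrb with Gm10767 lay at 0.14 ± 0.29 and 0.16 ± 0.19, with overlapping arrays.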
